A study of Homo sapiens with 8 samples.

Results

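The comparison set the aldehyde-reactive probe pulldown of wild-type cells (WT IP) against the same pulldown of ALKBH1 knockout cells (KO IP). The cells were HEK-293, a human embryonic kidney line. The probe (ARP) attaches biotin to aldehydes, and total RNA of either genotype was fragmented, treated with ARP and recovered on streptavidin, with a synthetic spike-in oligonucleotide in both. The libraries were taken by their labels, 2 WT IP and 2 KO IP, so 4 of the 8 libraries of the study, and the 4 input libraries of the same RNA without pulldown were used only for comparison. The knockout carried a CRISPR disruption of ALKBH1 and, per the study's methods, knockout lines were grown from single cells, so the genotype and whatever else separates 1 clone from its parent line cannot be told apart. The study describes the libraries as biological replicates.

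ALKBH1 is a dioxygenase that oxidises 5-methylcytidine in RNA to 5-hydroxymethylcytidine and on to 5-formylcytidine, the base whose aldehyde ARP can bind. The best known carriers are mitochondrial tRNA-Met, methylated at the first anticodon base (the wobble position) by NSUN3, and cytosolic tRNA-Leu-CAA, methylated there by NSUN2. Both are oxidised at that base by ALKBH1. A cytosolic tRNA is transcribed from many gene copies as a precursor with a 5′ leader and a 3′ trailer. The genes of tRNA-Leu-CAA, tRNA-Tyr-GTA, tRNA-Arg-TCT and tRNA-Ile-TAT include ones that also hold a short intron next to the anticodon. The data were peaks of cDNA ends, places where reverse transcription stopped, and each peak had a count of unique cDNA molecules.

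Genes with large differences between the pulldowns are shown first, with the anticodon in capitals, from the GRCh38 genome at RefSeq (nuclear) and GENCODE (mitochondrial) positions. All were higher in the WT IP except TRL-CAA4-1, which was listed there alone and not tested.
MT-TM, mitochondrial tRNA-Met, chrM:4402-4469, plus strand: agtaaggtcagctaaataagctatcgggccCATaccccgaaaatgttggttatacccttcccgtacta
TRL-CAA4-1, chr1:248873855-248873960, plus strand: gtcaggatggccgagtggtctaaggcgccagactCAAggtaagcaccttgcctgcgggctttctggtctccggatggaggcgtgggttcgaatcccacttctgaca
TRL-CAA1-1, chr6:28896223-28896328, minus strand: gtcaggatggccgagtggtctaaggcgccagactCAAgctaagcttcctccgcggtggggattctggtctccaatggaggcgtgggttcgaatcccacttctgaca
TRF-GAA1-1, chr6:28790722-28790794, minus strand: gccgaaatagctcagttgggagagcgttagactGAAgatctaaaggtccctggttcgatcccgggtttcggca
TRY-GTA2-1, chr2:27050782-27050870, plus strand: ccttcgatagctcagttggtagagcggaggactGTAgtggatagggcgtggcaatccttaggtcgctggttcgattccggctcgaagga
TRA-AGC1-1, chr6:28795964-28796035, minus strand: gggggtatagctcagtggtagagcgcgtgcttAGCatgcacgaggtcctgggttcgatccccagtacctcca
TRR-TCT1-1, chr1:93847573-93847657, plus strand: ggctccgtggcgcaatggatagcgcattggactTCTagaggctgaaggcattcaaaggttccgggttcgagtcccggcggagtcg
TRK-CTT2-5, chr16:3175691-3175763, plus strand: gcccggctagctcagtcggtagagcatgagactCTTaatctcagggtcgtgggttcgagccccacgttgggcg
MT-TM, the Leu-CAA genes and TRK-CTT2-5 had C as the first anticodon base, while TRF-GAA1-1 and TRY-GTA2-1 had G, TRA-AGC1-1 had A and TRR-TCT1-1 had T.

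Summed over peaks, WT IP replicates 1 and 2 held 65413 and 48380 counts, and KO IP replicates 1 and 2 held 53420 and 52137. They cover listed peaks, not the whole library. The lowest listed count was 10, which was worth between 153 and 207 CPM (peak counts scaled to a common library total), so a region with no listed peak may still have had reads and was given no fold. Peaks that overlapped on the same strand were merged into 733 regions. The WT IPs shared 351 of 606 regions (Pearson's r of the log2 counts across regions 0.935, chi-square per degree of freedom 5.83) and the KO IPs 304 of 456 (0.960 and 3.88), so replicates differed by more than counting noise. No pulldown or input library listed a peak on ALKBH1, so these files do not show the genotype, and none of 8 genes looked up as markers of this cell line (KRT8, KRT18 and VIM among them) had a pulldown peak either.

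By RNA class, mitochondrial tRNA made up 18.7% and 21.2% of both WT IPs against 9.99% and 9.78% of both KO IPs. Nuclear tRNA gene loci, where reads mapped to the genome and not to the mature tRNA reference, held 10.6% and 11.4% against 4.74% and 3.23%. Ribosomal RNA lay the other way, at 26.2% and 22.9% in WT against 40.8% and 40.7% in KO. The WT and KO libraries did not overlap in any of these 3 classes. Nor did they in intergenic or antisense regions, mitochondrial rRNA, pseudogenes or small noncoding RNA, so the lack of overlap was not particular to the 3. Cytosolic tRNA (34.3% ± 2.39 in WT, 33.5% ± 0.972 in KO, SD, n = 2 each) and the remaining classes overlapped. With 2 libraries against 2, an exact permutation test cannot give a two-sided p below 0.333, which was the value for each class without overlap. In bulk RNA, fewer cells that make an RNA and less of it per cell cannot be told apart.

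**Figure D1:**
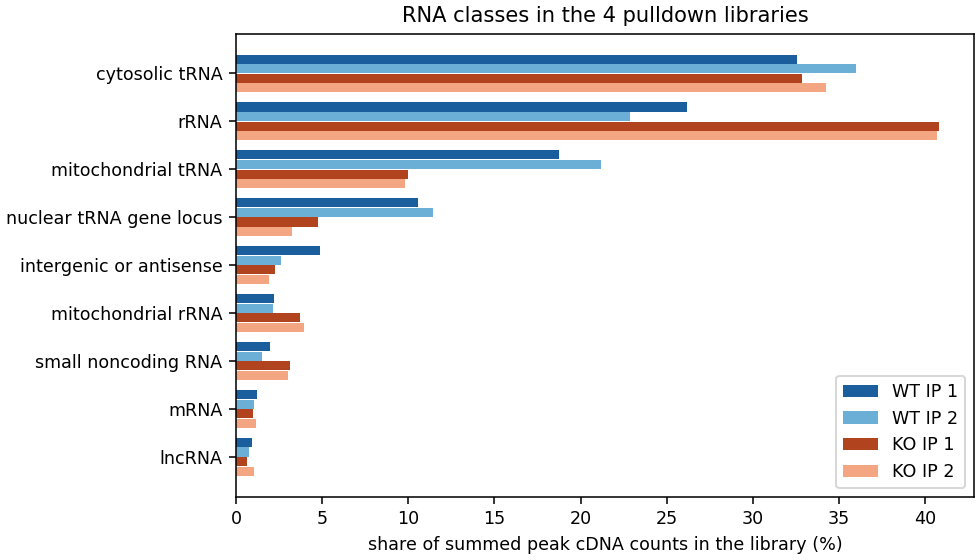
Share of the summed peak cDNA counts (%, x axis) held by each RNA class, 1 bar per pulldown library, for the classes whose WT and KO mean shares together exceed 1.5%. In mitochondrial tRNA and nuclear tRNA gene loci both WT bars exceed both KO bars, in rRNA both KO bars exceed both WT bars, and in cytosolic tRNA the bars of the genotypes overlap.

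The mitochondrial share turned on MT-TM. Without its region, mitochondrial tRNA held 5.02% of the remaining counts in WT and 8.48% in KO, so the sign of the difference changed. Nuclear tRNA gene loci covered 4937 and 5402 nt of listed peaks in WT against 1679 and 1698 nt in KO, with 113 and 104 regions against 48 and 42 at a similar median count (29 and 24 against 25 and 23.5). Ribosomal RNA covered 1324 and 1040 nt in WT and 1185 and 1140 nt in KO, a similar length.

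Of the 733 regions, 221 had a peak in all 4 pulldown libraries and were tested with edgeR's quasi-likelihood test, scaled to the summed peak counts. At a Benjamini-Hochberg adjusted p under 0.05, 84 regions (38.0%) differed, 28 higher in the WT IP (12.7%) and 56 lower (25.3%), and 105 had an unadjusted p under 0.05. The split depended on the scaling: the trimmed mean of M values (TMM) called 42 regions higher and 44 lower, with a median log2 ratio of 0.02 in place of -0.23. The call, an adjusted p under 0.05 in the same direction, held under 4 scalings for 23 of the higher and 40 of the lower regions. These were the summed peak counts, TMM, relative log expression (RLE) and each list scaled to its own total. Beyond these 4, DESeq2 called 26 higher and 32 lower, and totals without MT-TM gave 37 and 44. Nuclear tRNA gene loci had 13 of 31 regions higher and 1 lower, cytosolic tRNA 11 of 85 higher and 11 lower, mitochondrial tRNA 1 of 11 higher and 7 lower, and rRNA 1 of 42 higher and 28 lower. With TMM, 17 regions of loci were higher and 1 lower, 17 and 6 of cytosolic tRNA, 1 and 6 of mitochondrial tRNA, and 1 and 24 of rRNA. With the genome list scaled to its own total, 10 regions of loci were higher and 4 lower.

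**Figure D2:**
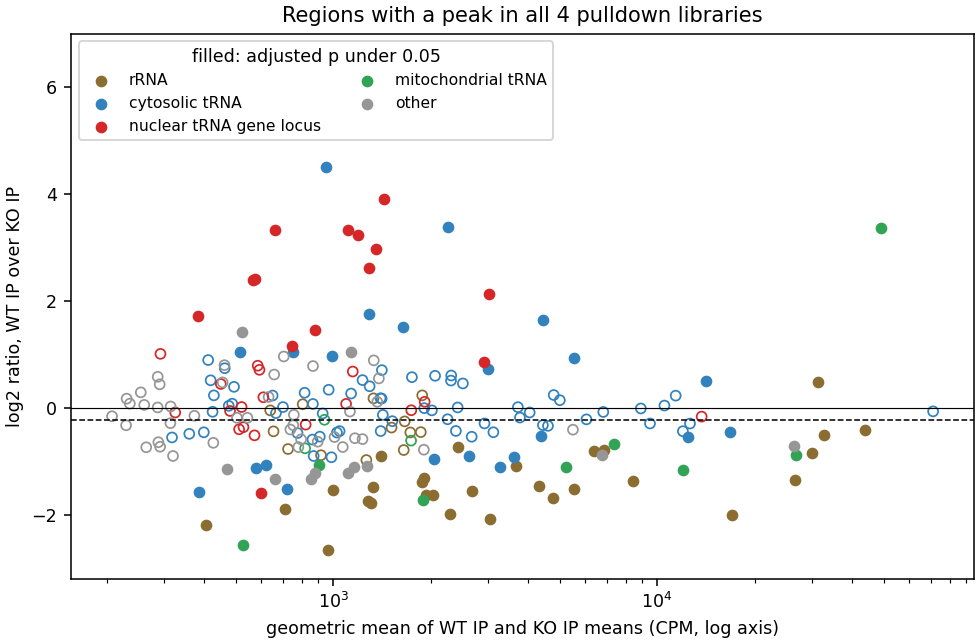
Log2 ratio of WT IP over KO IP (y axis) against the geometric mean level in CPM (x axis, log scale) for the 221 regions with a peak in all 4 pulldown libraries, coloured by RNA class. Filled points passed an adjusted p of 0.05, the dashed line is the median of -0.23, and the lone green point at the upper right, at 3.36, is MT-TM.

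MT-TM, the tRNA that starts and elongates mitochondrial translation with methionine, had the most counts of the 11 tested mitochondrial tRNA genes in WT. Its region (chrM:4400-4450) held 9326 and 8311 counts in WT against 753 and 866 in KO. Both WT values were far above both KO values, while replicates of a genotype lay close together. The mean was 157178 ± 20658 CPM in WT and 15353 ± 1778 in KO (SD, n = 2 each), a log2 ratio of 3.36 (SE 0.137, adjusted p = 3.7e-06), or 10.2-fold. It was 2.66 when the genome list was scaled to its own total and 3.60 with TMM.

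The MT-TM peak ran from position 4400 to 4450 in both WT IPs, and from 4404 and 4401 to 4445 in the KO IPs, so all 4 covered the anticodon at 4432 to 4434. The input peaks here spanned MT-TI and MT-TM together, so no input value was set beside it. A peak was still listed in both KO IPs, where MT-TH and MT-TY had more counts than MT-TM.

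Nuclear copies of mitochondrial DNA showed the same order. Regions that lay in none of the tRNA, rRNA or small RNA genes numbered 141, and 9 of these shared between 23 and 61 nt without a mismatch with MT-TM and its flanks. All 9 were listed in WT IP replicate 1, 4 of them in WT IP replicate 2 and 0 in either KO IP. The search for these copies was made after the regions had been seen. The largest are shown with the stretch identical to mitochondrial DNA in capitals.
Copy 1, chr1:629565-629638, plus strand, 61 nt identical to chrM:4395-4455: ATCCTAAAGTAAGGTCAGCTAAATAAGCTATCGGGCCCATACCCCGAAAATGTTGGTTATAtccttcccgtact
Copy 2, chr7:57186341-57186419, plus strand, 38 nt identical to chrM:4428-4465: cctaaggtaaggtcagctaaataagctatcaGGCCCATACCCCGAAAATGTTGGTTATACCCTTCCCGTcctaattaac
Copy 1 had 385 and 143 counts in the WT IPs and copy 2 had 373 and 195, with no listed peak in a KO IP. Neither lay in an annotated gene on that strand. Whether these reads came from MT-TM itself was not tested. Of the 11 regions that shared sequence with other mitochondrial or tRNA genes, the WT IPs listed 9 and 5 and the KO IPs 10 and 9. Some were listed in 1 genotype alone. They were chr7:97141606-97141628 (29 and 23 counts in the KO IPs), chr17:22524626-22524635 (11 in KO IP replicate 1) and chr1:629518-629534 (13 in WT IP replicate 1).

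The other mitochondrial tRNA genes were at the opposite side. Of the 22 genes, 11 had a peak in all 4 pulldowns; beside MT-TM, 7 were lower in the WT IP and 3 did not pass, where 21.5% of all 65 gene and locus sums were higher and 21.5% were lower (43.1% in all). The median log2 ratio of the 11 was -0.89, against -0.19 over all 65. The split over the 65 depended on the scaling, with 10 higher and 31 lower when each list was scaled to its own total and 17 and 8 with DESeq2. With TMM, MT-TT no longer passed (adjusted p = 0.052) and the other 6 stayed lower, while DESeq2 called neither MT-TT (0.14) nor MT-TA (0.13).

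MT-TP, mitochondrial tRNA-Pro, had the lowest ratio, with 11 and 13 counts in WT against 71 and 64 in KO over a region that ran beyond the gene at both ends. The groups did not overlap, and the log2 ratio was -2.56 (SE 0.346, adjusted p = 0.0041), but the WT values lay near the list minimum, and the inputs were lower in WT as well (-1.17, adjusted p = 0.020). MT-TI, mitochondrial tRNA-Ile, had 61 and 56 counts against 186 and 179, a log2 ratio of -1.73 (SE 0.247, adjusted p = 0.0041). In the KO IPs its peak ran over 31 nt from 4281 to 4311, across the anticodon at 4292 to 4294. In the WT IPs only short peaks were listed, 4282 to 4284 and 4298 to 4299 in replicate 1 and 4282 to 4288 and 4306 to 4309 in replicate 2, none of which reached the anticodon.

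MT-TY, mitochondrial tRNA-Tyr, had 531 and 382 counts in WT and 970 and 939 in KO, a log2 ratio of -1.18 (SE 0.137, adjusted p = 0.0027). Its listed length also differed, 12 nt in both WT IPs and 40 nt in both KO IPs. The inputs differed in the same direction (-0.59, adjusted p = 0.026). MT-TF (tRNA-Phe with the start of MT-RNR1, -1.10), MT-TA (tRNA-Ala, -1.07), MT-TH (tRNA-His, -0.89) and MT-TT (tRNA-Thr, -0.68) were lower as well, while MT-TG (-0.76), MT-TS1 (-0.62) and MT-TN (-0.23) did not pass. The inputs of MT-TF differed the other way (0.52, adjusted p = 0.040), and those of MT-TT were further apart than its pulldowns in the same direction (-1.03, adjusted p = 0.012). The call of MT-TA was lost without KO IP replicate 1 or either WT IP, and that of MT-TT without any 1 of the 4 libraries.

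**Figure D3:**
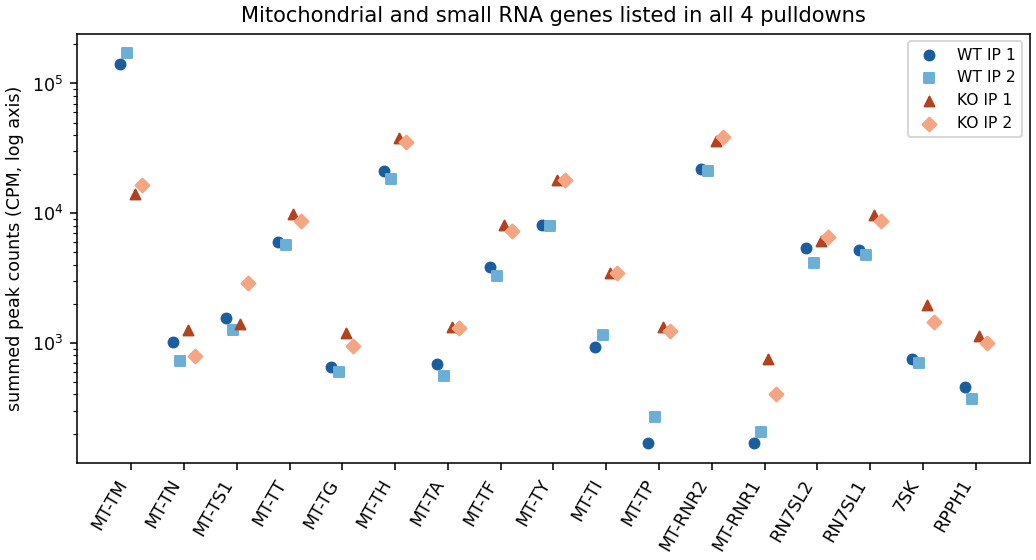
Summed peak counts of mitochondrial tRNA and rRNA genes and of RN7SL1, RN7SL2, 7SK and RPPH1 in each pulldown library (CPM, log axis), 1 point per library. Only MT-TM has both WT points above both KO points; for MT-TP, MT-TI, MT-TY, MT-TF and MT-TH both WT points lie below both KO points.

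Of the mitochondrial rRNAs, MT-RNR2, the large subunit rRNA, was lower, with 1445 and 1020 counts in WT and 1939 and 2023 in KO (log2 ratio -0.80, SE 0.111, adjusted p = 0.0041). The sum includes the region chrM:3108-3275, which runs on into MT-TL1, a tRNA-Leu gene. In that region each KO IP had a single peak across both genes (1753 and 1821 counts). The WT IPs had 1262 and 972 counts in peaks that ended at 3200, and smaller peaks beyond. MT-RNR1, the small subunit rRNA, had 11 and 10 counts against 40 and 21, with both WT values at or next to the list minimum. Its sum passed (-1.62, SE 0.416, adjusted p = 0.028) but joins peaks at different places, since the peak of WT IP replicate 1 (853 to 858) overlapped no KO peak, so its ratio does not compare like positions. Between the inputs MT-RNR2 was lower in WT as well (-0.66, adjusted p = 0.020), while MT-RNR1 did not pass (-0.23, adjusted p = 0.76).

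Mature tRNA-Leu-CAA had the highest ratio of the 36 anticodon sums. Its references summed to 1068 and 844 counts in WT against 70 and 47 in KO, over 110 and 98 nt of listed peaks against 57 and 61 nt. The log2 ratio was 3.93 (SE 0.203, adjusted p = 3.2e-05), or 15.2-fold, and it stayed between 3.69 and 4.26 under every alternative that was run. Between the inputs the ratio was 0.16 and did not pass (adjusted p = 0.25).

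Among the Leu-CAA references, tRNA-Leu-CAA-4-1 had 273 and 238 counts in WT and 10 and 11 in KO, at or next to the list minimum. Its log2 ratio, 4.50 (SE 0.276), was the highest of the 221 regions. tRNA-Leu-CAA-1-1/1-2, which stands for 2 identical genes, had 459 and 369 against 38 and 36, a ratio of 3.38 (SE 0.187). tRNA-Leu-CAA-2-1 (124 and 87 in WT) and tRNA-Leu-CAA-3-1 (189 and 150) were listed in KO IP replicate 1 with 11 counts each and not in replicate 2, and were not tested. tRNA-Leu-CAA-6-1 had a peak in WT IP replicate 1 alone, with 23 counts at positions 69 to 74. The other 4 references had their peaks over the anticodon at positions 35 to 37, counted from the 5′ end of the tRNA, in every library that listed them.

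The genes of tRNA-Leu-CAA gave the same order from separate reads, those that mapped to the genome. TRL-CAA4-1 had 329 and 293 counts in the WT IPs and no listed peak in either KO IP. Both KO inputs listed it (26 and 41), but their totals were larger (194494 and 285539 counts). There 10 counts were worth 51.4 and 35.0 CPM, against 187 and 192 CPM in the KO IPs. The same level could thus be listed in a KO input and not in a KO IP. TRL-CAA2-1 (70 and 56) was also listed in both WT IPs and no KO IP. TRL-CAA1-1 had 114 and 120 counts against 12 and 10 (log2 ratio 3.32, SE 0.352), TRL-CAA3-1 230 and 186 against 21 and 20 (3.24, SE 0.257) and TRL-CAA1-2 240 and 190 against 28 and 23 (2.97, SE 0.252). In each of these 3 the WT and KO libraries were far apart, with adjusted p of 0.00033, 8.2e-05 and 9.2e-05 in that order by edgeR.

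The extent of these peaks varied between libraries. Counted from the first base of the gene, the region of TRL-CAA1-1 began 7 nt upstream, in the leader, in WT IP replicate 2 and both KO IPs, and that of TRL-CAA3-1 began 5 nt upstream in all 4 pulldowns. The peak of TRL-CAA1-2 began 5 nt upstream in the KO IPs and within the gene in the WT IPs. That of TRL-CAA4-1 ran from 248873912 to 248873952, downstream of the anticodon, in WT IP replicate 1 and from 248873853, in the leader, to the same end in replicate 2. The region of TRL-CAA2-1 lay at positions 60 to 104, downstream of the anticodon.

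The remaining mature anticodons had smaller ratios. Beside Leu-CAA, 3 of the 36 sums passed: Trp-CCA was higher, with 255 and 194 counts in WT and 128 and 141 in KO (log2 ratio 0.63, SE 0.145, adjusted p = 0.040), and Ser-CGA and the selenocysteine tRNA SeC-TCA were lower (-0.65, SE 0.145, and -1.53, SE 0.350, adjusted p = 0.040 each). Together 11.1% of the sums passed, 5.56% in each direction, a balance that depended on the scaling: 14 were higher and 1 lower with each list scaled to its own total, 10 and 1 with totals without MT-TM, and 8 and 5 with RLE. All 3 calls other than Leu-CAA depended on the libraries used, and that of Ser-CGA also on the scaling (-0.31, adjusted p = 0.15, with each list scaled to its own total), since Trp-CCA and Ser-CGA were lost without any 1 of the 4 libraries and SeC-TCA without either KO IP or WT IP replicate 2. SeC-TCA was also lower in WT between the inputs (-1.11, adjusted p = 0.0081).

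Of 16 anticodons that start with C, 14 were tested, and 2 were higher, 1 was lower and 11 did not pass, with a median of 0.11 against -0.13 over all 36. Arg-CCT had 857 and 887 counts in WT and 502 and 524 in KO. Its groups did not overlap, but the log2 ratio of 0.69 had an adjusted p of 0.053, and 0.024 with TMM. Its inputs were also higher in WT (0.60, adjusted p = 0.0081). Val-CAC had 366 and 365 against 212 and 247 (log2 ratio 0.59, adjusted p = 0.054, and 0.032 with TMM), although in the inputs it was lower in WT (-0.58, adjusted p = 0.0081). Lys-CTT (573 and 410 against 626 and 638, -0.47) and Gln-CTG (180 and 101 against 227 and 173, -0.64) were on the lower side and did not pass (adjusted p = 0.053 and 0.054), although Lys-CTT passed with TMM (0.027) and DESeq2 (0.042). With TMM, 4 of the 14 were higher and 2 lower.

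A list of 7 anticodons that the study named or followed up held 1 higher (Trp-CCA), 1 lower (Ser-CGA) and 5 that did not pass, with a median of -0.10. Trp-CCA and Ser-CGA were among those the study named from these pulldown libraries, so the list is not independent evidence. Neither of the 2 tested substrates of the methyltransferase DNMT2, Asp-GTC (-0.41) and Gly-GCC (-0.13), passed, nor did any of 3 tested anticodons that carry queuosine in mature tRNA, His-GTG (-0.46), Asp-GTC and Asn-GTT (0.12). Of these 4, 1 (His-GTG) had an unadjusted p under 0.05 and passed with TMM (adjusted p = 0.024) and DESeq2 (0.034).

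**Figure D4:**
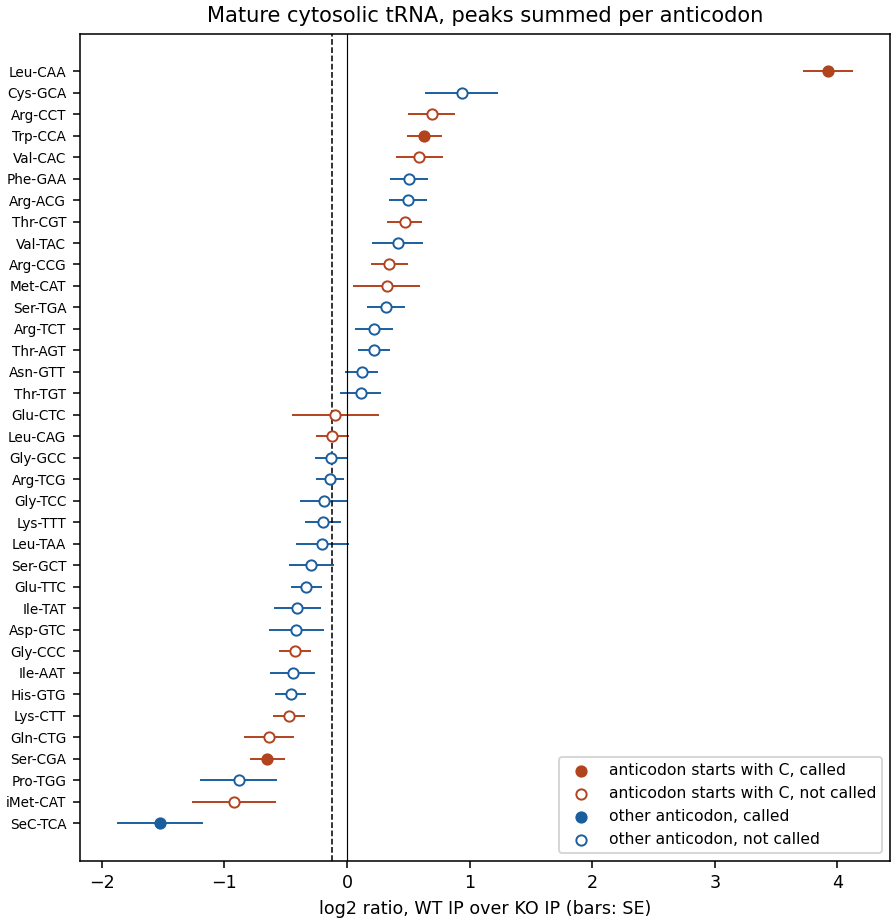
Log2 ratio of WT IP over KO IP with its standard error (x axis) for peaks of mature cytosolic tRNA summed per anticodon (y axis, 36 anticodons with a peak in all 4 pulldowns). Leu-CAA, at 3.93, stands alone, and the other anticodons lie between -1.53 and 0.94.

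Within an anticodon the references differed. tRNA-Arg-CCT-1-1 had 412 and 453 counts in WT against 131 and 134 in KO, a log2 ratio of 1.64 (SE 0.214, adjusted p = 0.00080). The main tRNA-Val-CAC reference had 155 and 154 against 50 and 52 (1.52, SE 0.265, adjusted p = 0.0029), and tRNA-Arg-CCG-1-1 136 and 130 against 40 and 34 (1.76, SE 0.283, adjusted p = 0.0019). Their peaks differed in place, since that of tRNA-Arg-CCT-1-1 covered the anticodon at positions 34 to 36, and those of tRNA-Val-CAC and tRNA-Arg-CCG-1-1 ended at or before position 33. These 3 regions were named after their values had been seen, and isodecoders share reads.

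Nuclear tRNA gene loci held most of the regions listed in WT alone. In all, 99 regions (13.5% of 733) had a peak in both WT IPs and in no KO IP, and 45 (6.14%) the reverse. Without 1 library these counts rose to at most 242 (without WT IP replicate 2) and 97 (without KO IP replicate 2), and among peaks above 100 counts they were 19 and 12. Of the 99, 54 were tRNA gene loci and 25 were rRNA, and of the 45, 3 were tRNA gene loci and 15 were rRNA. Over all 733 regions, 135 were tRNA gene loci and 226 were rRNA. The 135 loci with a peak in any pulldown thus included 54 listed in both WT IPs alone, 3 in both KO IPs alone and 31 in all 4 libraries. Most of the 54 were low, with counts from 10 to 329, and 3 of them exceeded 100 counts in both WT IPs. In the KO inputs 24 of the 54 had a peak in both libraries and 15 in neither. The KO inputs had larger totals, where 10 counts were worth 51.4 and 35.0 CPM. A peak listed there could thus lie under the list minimum of a KO IP.

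By anticodon, Phe-GAA had 6 of 7 loci in the WT list alone, Lys-CTT 5 of 6, Arg-ACG 4 of 4, and Tyr-GTA 4 of 9. TRY-GTA1-1 had 154 and 200 counts and TRK-CTT2-1 128 and 130 in the WT IPs, with no listed peak in either KO IP. TRW-CCA2-1, a gene of tRNA-Trp, had 87 and 114, while the KO inputs listed it with 109 and 60.

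**Figure D5:**
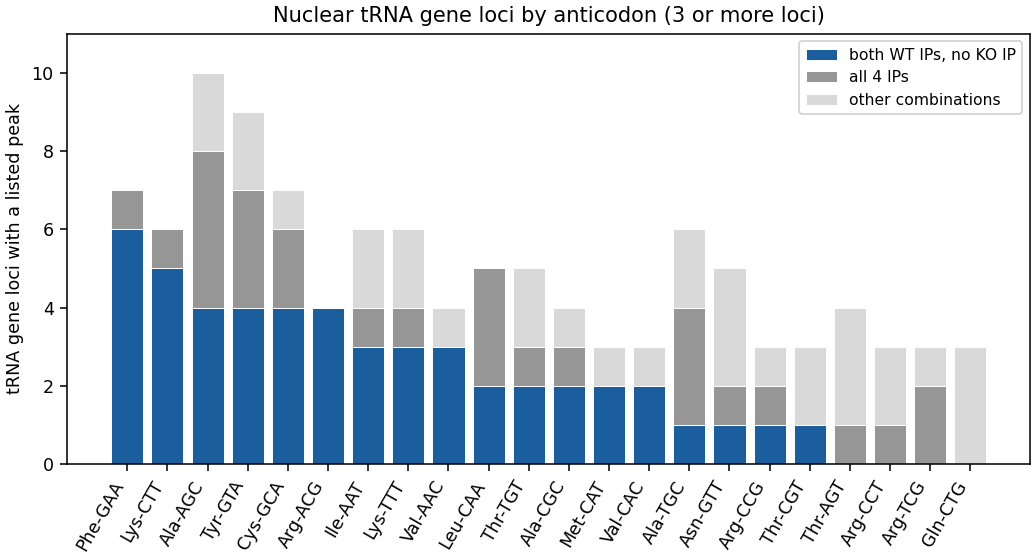
Number of nuclear tRNA gene loci with a listed pulldown peak (y axis) per anticodon with 3 or more such loci, split by the libraries that list them. Blue parts, both WT IPs and no KO IP, reach 6 of 7 loci for Phe-GAA and 4 of 4 for Arg-ACG, and are absent for Thr-AGT, Arg-CCT, Arg-TCG and Gln-CTG.

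Summed per anticodon, 13 of the 23 sets of loci with a peak in every pulldown were higher in WT and 0 were lower, with a median log2 ratio of 1.35 against -0.19 over the 65 gene and locus sums. Of these 23, 16 had an unadjusted p under 0.05, and DESeq2 and TMM also called no set lower. Scaling the genome list to its own total gave 9 higher and 2 lower, since the WT genome list was the larger. The sums moved with how much was listed. Loci of Phe-GAA had 470 and 573 counts over 344 and 393 nt in WT and 11 and 28 counts over 13 nt in each KO IP (4.67, SE 0.523, adjusted p = 0.0027). Loci of Lys-CTT had 323 and 316 counts over 376 and 384 nt against 10 and 16 over 31 and 8 nt (4.53, SE 0.354, adjusted p = 0.00057), and their inputs were higher in WT too (1.01, adjusted p = 0.042). Loci of Leu-CAA differed less in length, 319 and 403 nt against 300 nt in each KO IP (3.91, SE 0.199). The 3 tested anticodons with intron-bearing genes, Leu-CAA, Tyr-GTA (3.04) and Arg-TCT (2.61), were all higher.

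Single loci gave the comparison without that difference in the number of genes. TRF-GAA1-1 had 270 and 339 counts in WT against 11 and 28 in KO (log2 ratio 3.90, SE 0.442, adjusted p = 0.00041), with peaks of 35 and 38 nt against 13 nt. TRY-GTA2-1 had 212 and 184 against 18 and 19 (3.32, SE 0.271, adjusted p = 8.2e-05), with peaks of 22 to 24 nt in all libraries, at positions 52 to 75, downstream of the anticodon. TRA-AGC1-1 had 183 and 174 against 30 and 25 (2.61, SE 0.278), TRR-TCT1-1 70 and 77 against 15 and 11 (2.42, SE 0.363), TRK-CTT2-5 74 and 71 against 10 and 16 (2.38, SE 0.361) and TRY-GTA5-4 420 and 299 against 75 and 78 (2.12, SE 0.174). TRY-GTA5-4 was higher in WT between the inputs by more (2.98, adjusted p = 0.018), and TRA-AGC1-1 by 1.20 (adjusted p = 0.021), while for TRY-GTA2-1 (-0.20) and TRR-TCT1-1 (-0.17) the inputs did not differ beyond their spread. In the fit that joined pulldowns and inputs, the input ratio of TRF-GAA1-1 was 1.33, also higher in WT.

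Among the mature forms of these tRNAs, Phe-GAA had 979 and 904 counts in WT and 644 and 609 in KO (0.50, adjusted p = 0.054, and 0.024 with TMM), mature Arg-TCT 0.22 (adjusted p = 0.27) and mature Lys-CTT -0.47. The ratio of Leu-CAA was 3.93 in the mature reference and 3.91 at its genes. No such ratio could be given for mature Tyr-GTA or for 4 mature Ala-AGC references, which were listed in both WT IPs and no KO IP (tRNA-Tyr-GTA-4-1 with 106 and 94 counts, tRNA-Ala-AGC-3-1 with 38 and 34). For the other anticodons the difference between the levels was not tested.

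Position along the locus was taken from the merged region, which joins the peaks of every pulldown that listed it. Of the 54 loci in the WT list, 30 (55.6%) had a region that began in the 5′ leader, by a median of 7.5 nt, and 46 (85.2%) covered the anticodon. Of the 31 loci listed in all 4 pulldowns, 16 (51.6%) began in the leader and 30 (96.8%) covered the anticodon. Over all 135 loci with a peak, 62 (45.9%) began in the leader and 114 (84.4%) covered the anticodon. A region listed in all 4 pulldowns joins peaks of more libraries than one listed in WT alone, so these shares do not compare like extents. The leader is absent from the mature tRNA.

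Ribosomal RNA was lower in the WT IP at most positions. Of 28 tested regions of 28S rRNA, 20 were lower and 0 higher, with a median log2 ratio of -1.36, and of 11 in 18S rRNA 6 were lower and 1 higher. With TMM these were 18 and 0, and 5 and 1. The share of regions lower in WT over all classes was 25.3%. No 28S region was higher with TMM, with each list scaled to its own total or with DESeq2, and the highest 28S ratio was 0.17, which did not pass.

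The 28S region at positions 3640 to 3647 of the mature rRNA had 28 and 16 counts in WT and 133 and 125 in KO, the lowest ratio of the 221 regions (-2.67, SE 0.293, adjusted p = 0.00037). Its listed peaks were 2 and 3 nt long in WT and 8 nt in KO. The next were 28S positions 2738 to 2742 (10 and 11 against 50 and 41, -2.19), 98 to 113 (111 and 61 against 396 and 268, -2.08) and 3560 to 3565 (99 and 38 against 257 and 230, -1.98).

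In 18S rRNA the lowest ratio was at positions 1281 to 1346, which on the RefSeq copy at chr21:8438156-8438221, plus strand, read as follows, shown because it was the largest 18S difference and was already in the input.
18S rRNA, positions 1281 to 1346: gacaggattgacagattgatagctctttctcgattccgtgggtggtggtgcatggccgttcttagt
WT had 639 and 350 counts against 1796 and 1820 in KO (log2 ratio -2.01, SE 0.152, adjusted p = 7.3e-05), with peaks of 37 and 21 nt in WT and 66 nt in both KO IPs. Between the inputs the ratio was -1.97 (adjusted p = 0.018). The test of the difference between the pulldown and input ratios gave -0.04 (SE 0.216, adjusted p = 0.89). Positions 1017 to 1028 (84 and 44 against 133 and 226, -1.63), 296 to 302 (50 and 40 against 123 and 112, -1.48) and -2 to 7, at the 5′ end (76 and 56 against 167 and 153, -1.38), followed. The 1 region higher in WT was at the 3′ end of 18S, positions 1766 to 1857, with 2319 and 1858 counts against 1418 and 1387 (0.47, SE 0.099).

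Small RNA genes transcribed by RNA polymerase III, other than tRNA and 5S rRNA, had 6 of 20 listed genes tested, of which 3 were lower in WT and 0 higher, with a median of -0.89. The same 3 genes had an unadjusted p under 0.05, and DESeq2 called RN7SL1 of them. Over all 65 gene and locus sums 21.5% were lower and 21.5% higher, with a median of -0.19. The 14 tested small noncoding RNA genes of any kind had a median of -0.59. RPPH1, the RNA of RNase P, which cuts the 5′ leader from precursor tRNA, had 30 and 18 counts in WT and 60 and 52 in KO (-1.34, SE 0.290, adjusted p = 0.017). 7SK, which holds the elongation factor P-TEFb inactive, had 49 and 34 against 104 and 76 (-1.23, SE 0.290, adjusted p = 0.024), and RN7SL1, the RNA of the signal recognition particle, 338 and 231 against 515 and 457 (-0.89, SE 0.173, adjusted p = 0.011). RN7SL2, a near-identical copy of RN7SL1, did not pass (-0.41, adjusted p = 0.16). Per the study's methods, only reads that mapped uniquely were counted at either copy. Each of the 3 calls was lost when 1 library was left out (RN7SL1 without either KO IP, RPPH1 without either WT IP, 7SK without either WT IP or KO IP replicate 1). None of 3 tested spliceosomal snRNAs passed (RNU5E-1 0.17, RNU5D-1 -0.55, RNU4-1 -0.74), and RNU4-2 was listed in both KO IPs alone (30 and 31 counts).

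The 45 regions listed in KO alone included 15 of rRNA, 8 of small noncoding RNA and 6 of mitochondrial rRNA. All 733 regions held 226, 50 and 20 of these classes in that order. The rRNA share of the list was thus near that over all regions. The highest of the 45 were 28S positions 3794 to 3799 (82 and 57 counts), 28S positions 1535 to 1536 (59 and 45) and an intron of RBFOX3 (43 and 54). All 3 had a listed peak in each of the 4 input libraries.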

How the data were processed

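Peak lists of 8 libraries were read, 2 each of WT IP, KO IP, WT input and KO input. Per the study's methods, the authors removed PCR duplicates by molecular identifiers, mapped reads with STAR first to tRNA and rRNA references and then uniquely to GRCh38, and clustered cDNA start positions per library with Paraclu. Each deposited peak carries 1 value, the count of unique cDNA molecules, which was a whole number of at least 10 in every list. Reads outside clusters are not in these totals, and the spike-in was not analysed here.

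Peaks of the 4 pulldowns that overlapped by 1 nt or more on a strand were merged, assigned to RefSeq and GENCODE 44 genes, and tested with edgeR 4.0.16 (R 4.3.3) by the quasi-likelihood test, with summed peak counts as library sizes and Benjamini-Hochberg adjustment at 0.05. Merged regions, mature tRNA summed per anticodon, and genes or loci were each tested where all 4 pulldowns had a peak; the standard error was the log2 ratio over the square root of F. A separate test asked whether the genotype ratio differed between pulldown and input. Alternatives were TMM, RLE, DESeq2 1.42.0, each list scaled to its own total, totals without MT-TM, unlisted regions set to 0, a mean count of at least 50, a 10 nt overlap, peaks above 100 counts, a replicate block and leaving out each library. On simulated 4-fold changes edgeR recovered 94.5% of changed regions (221 tested), 100% of anticodon sums (36) and 86.9% of gene and locus sums (65), with 4.06%, 7.89% and 3.42% of its calls wrong. The simulation raised and lowered near-equal numbers of features, with no shift in composition and no list minimum. These rates therefore do not carry over to smaller changes or to calls that depend on the scaling.

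Named were MT-TM and the Leu-CAA references, the 12 highest and 12 lowest regions past the threshold, anticodon sums past it or starting with C, tested mitochondrial tRNA genes, the 4 largest rRNA changes per molecule, tested small RNAs past it, and the top regions listed in 1 genotype; others were named after their values were seen. The members and lists were chosen with earlier results of these data known. P-values of edgeR rest on the spread between 2 libraries per group, moderated over all tested features and not taken from each feature alone. Intervals of counting error were not used for tests.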

Additional observations from a re-analysis of the deposited data

Results flagged for a closer look

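The genotype ratio in the pulldown was compared with that in the input for 179 regions, and the ratios differed for 64 of them (35.8%, edgeR, adjusted p under 0.05), 20 upward and 44 downward. With TMM the counts were 31 and 18. Each value here is the log2 ratio of WT over KO in the pulldowns less that in the inputs, for named regions whose ratios differed by that test.

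Leu-CAA regions were further apart in the pulldown than in the input, by 4.55 at tRNA-Leu-CAA-4-1 and 3.03 at tRNA-Leu-CAA-1-1/1-2. Its genes TRL-CAA1-1 (3.79), TRL-CAA3-1 (3.58) and TRL-CAA1-2 (3.12) did the same. Other tRNA genes in this direction were TRY-GTA2-1 (3.52), TRR-TCT1-1 (2.59), TRF-GAA1-1 (2.57) and TRA-AGC1-1 (1.41).

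In the other direction, TRY-GTA5-4 had -0.85, since its inputs differed by more than its pulldowns, and this call was lost with TMM (-0.52, adjusted p = 0.23). MT-TP had -1.41. In 28S rRNA the values were -2.18 at positions 2738 to 2742, -1.86 at 3640 to 3647, -1.38 at 2578 to 2584 and -1.29 at 2761 to 2764. In 18S rRNA they were -1.29 at positions 1017 to 1028 (adjusted p with TMM 0.098) and -0.74 at 296 to 302 (-0.40 and 0.33 with TMM).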

How the results depend on the processing

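The 26 named regions kept their direction and call in every alternative in which they were tested. Most were named because their ratios were the most extreme past the threshold. Those with low counts, such as MT-TP, could not be tested above 100 counts or at a mean count of at least 50. Over all regions, 84 differed, against 221 of 434 with unlisted regions set to 0, 30 of 53 above 100 counts, and 56 to 99 when 1 library was left out. For anticodon sums, 4 differed, against 10 with TMM, 13 with RLE, 12 with DESeq2, 15 with each list scaled to its own total, 11 with totals without MT-TM, 8 with unlisted set to 0, and 1 to 10 without 1 library. Gene and locus sums, 28, became 53 with unlisted set to 0 and 18 to 24 without 1 library. Regions listed in WT alone, 99, became 19 above 100 counts and 111 to 242 without 1 library (242 without WT IP replicate 2), and those in KO alone, 45, became 12 and 50 to 97 (97 without KO IP replicate 2). The class differences (WT minus KO, percentage points) above 100 counts, in regions of all 4 libraries and without MT-TM were 13.4, 12.5 and -3.46 for mitochondrial tRNA and 5.15, 3.61 and 9.03 for tRNA gene loci; rRNA was -20.0 above 100 counts and -12.3 without MT-TM, and cytosolic tRNA 6.65 without MT-TM. Without 1 library they ranged from 8.86 to 11.3, 6.27 to 7.78, -17.9 to -14.5 and -0.956 to 2.43. MT-TM ranged from 3.22 to 3.48 and Leu-CAA from 3.69 to 4.22. Among the named sums, signs changed for some that had not passed: Glu-CTC (0.24 with own totals, 0.12 without MT-TM in the totals, -0.256 to 0.0238 without 1 library), Leu-CAG (0.22 and 0.11), Met-CAT (-0.0757 to 0.648 without 1 library), MT-TN (-0.52 to 0.15) and MT-TS1 (-1.05 to 0.0021). With own totals further sums that had not passed changed sign, among them Gly-GCC (0.20) and RNU5E-1 (-0.52). The causes were not tested. Same-numbered libraries deviated together (correlation 0.453 over 221 regions), but with 2 pairs the numbers were not taken to pair them; with a replicate block, 125 regions, 20 anticodon sums and 25 gene and locus sums differed, with MT-TM at 3.35 and Leu-CAA at 3.92, SeC-TCA (adjusted p = 0.069) and MT-RNR1 (0.072) did not pass, and Asp-GTC (-0.42, 0.027) did. A listed minimum of 10 counts limits every statement on unlisted regions.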

Other observations

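Few protein-coding genes held peaks. An intronic region of SGPL1, which encodes sphingosine-1-phosphate lyase, had 124 and 98 counts in the WT IPs and no listed peak in a KO IP. KIAA0825 (21 and 15 counts in WT, 42 and 32 in KO, log2 ratio -1.14, edgeR adjusted p = 0.028) was lower, and its region shared 70 nt without a mismatch with mitochondrial DNA. Of 10 tested mRNA regions 1 was lower, and 0 were with TMM or RLE. Of 10 sums per mRNA gene 1 was lower, also with TMM and RLE.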
